A study of Mus musculus with 16 samples.

Results

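The genes described here are 9 regulators of Ras, 6 GTPase-activating proteins and 3 guanine nucleotide exchange factors, found by symbol among the 24972 gene rows of 16 mouse hippocampal RNA-seq libraries. The activating proteins (RasGAPs) were Rasal1, Rasal2, Rasa1, Rasa2, Rasa3 and Nf1. The exchange factors were Rasgrf1, Rasgrf2 and Rasgrp1. Each of the 9 symbols occurred once in every library and passed the filter on low values in every comparison.

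Ras is a small GTPase that signals while it holds GTP and falls silent once the GTP is hydrolysed. Exchange factors load Ras with GTP, often in answer to calcium or diacylglycerol, and RasGAPs speed the hydrolysis that ends the signal. In hippocampal neurons Ras links glutamate receptors and neurotrophin receptors to the ERK kinase cascade, which has been long studied in synaptic plasticity and memory.

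The libraries came from ArcCreERT2::eYFPflx mice, a line in which neurons that express Arc during a drug-defined window can be labelled with eYFP, and trained and untrained mice carried the same alleles on a C57BL/6 background. Mice were 3 to 4 months old. Trained mice learned active place avoidance, in which a rotating arena carries the animal toward a shock zone, over 4 trials on 2 days, and untrained mice walked the same arena with the shock off. A retention test without shock followed the day after the last trial, and tissue was taken 60 min after that test. Microdissected pieces of dorsal dentate gyrus (DG), CA3 and CA1 were pooled by subregion within each mouse. The 3 trained mice gave 9 libraries (3 each of CA1, CA3 and DG). The 3 untrained mice gave 7, with 3 of CA1, 2 of CA3 and 2 of DG.

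Each value is an estimated count after the authors' normalization across libraries, and values summed to between 7606553 and 7984144 per library. The read depth behind them is unknown, so no counting interval is given. In 7 libraries (both untrained DG, all 3 trained CA1, and 2 of trained CA3, replicates 1 and 2) between 7567 and 9758 genes were listed at 0, against 3124 to 5944 in the other 9. That split coincides with training in CA1 and, the other way round, in DG. The sex-linked transcript Xist separated the 9 trained libraries from 6 of the 7 untrained ones. The exception was untrained CA3 replicate 1, with an Xist value of 10587 and a Ddx3y value of 201.4, which stands apart from the other untrained libraries. The CA1 and DG libraries with the same replicate number had Xist values of 26.1 and 25.5, so libraries labelled as 1 mouse disagree, which bears on the CA3 values of untrained mice and on every fit by mouse below. Among trained libraries, DG replicate 3 had a Ddx3y value of 255.2 beside an Xist value of 7601. Ddx3y was 100.6 in CA1 replicate 3, 92.9 in CA3 replicate 3, 70.9 in CA1 replicate 1 and 1.66 to 12.9 in the rest. Trained libraries of each subregion therefore also held both transcripts. The methods list 2 females and 1 male among trained mice and 1 female and 2 males among untrained mice, a makeup that the Xist values do not follow.

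The subregion labels were checked against 6 marker genes for each subregion, and the values bore them out only in part. Summed markers of dentate granule cells (Prox1, Dsp, C1ql2, Trpc6, Glis3 and Lct) lay between 7620 and 9193 in the CA1 libraries, between 6691 and 11492 in CA3 and between 7974 and 10196 in DG. None of the 6 differed between CA1 and DG or between CA3 and DG at an adjusted p under 0.05 (limma). Summed CA3 markers lay between 1924 and 2623 in CA3 libraries, against 1989 to 2316 in DG and 1506 to 2043 in CA1. Summed CA1 markers reached 3281 to 5300 in untrained CA1 but 1624 to 2011 in trained CA1, a range that overlaps the 1351 to 2142 of DG. The names CA1, CA3 and DG below are therefore those of the labels.

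**Figure D1:**
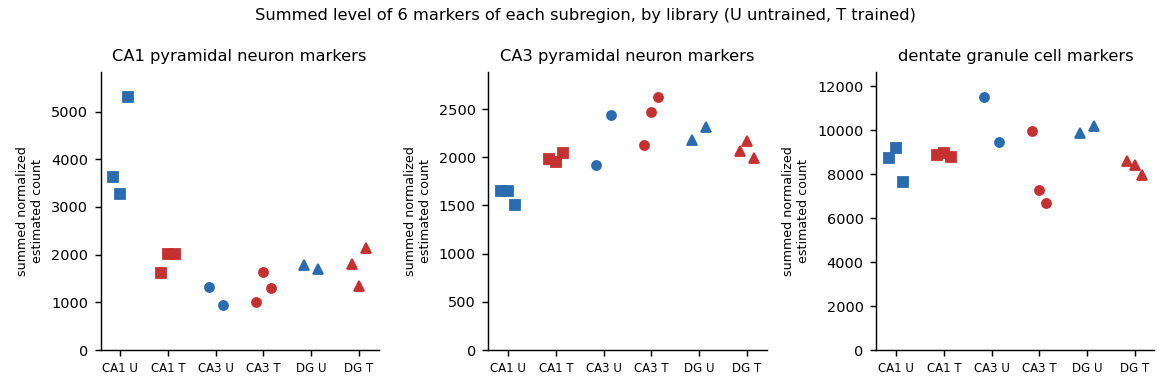
Summed normalized estimated count (y axis) of 6 markers each of CA1 pyramidal neurons, CA3 pyramidal neurons and dentate granule cells, with 1 point per library in the 6 groups of subregion and training (x axis). Granule cell markers were as high in CA1 and CA3 libraries as in DG, and CA1 markers stood out in the 3 untrained CA1 libraries.

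The promoters of 5 members are shown because all of their trained DG values, described below, lay under the untrained ones. They come from RefSeq (GRCm38.p6), which held a promoter for 8 of the 9 members and not for Rasal1, and each is 300 bases long and printed 5′ to 3′ on the strand of the gene. The windows are Rasal2 at chr1:157412546-157412845 (minus strand), Rasa1 at chr13:85289437-85289736 (minus strand), Rasa2 at chr9:96631454-96631753 (minus strand), Rasgrf1 at chr9:89909525-89909824 (plus strand) and Rasgrf2 at chr13:92131779-92132078 (minus strand). Capitals mark the short cyclic AMP response element TGACG (short CRE), on which CREB family factors can bind, and the SP1 box GGGCGG, each on either strand.
Rasal2: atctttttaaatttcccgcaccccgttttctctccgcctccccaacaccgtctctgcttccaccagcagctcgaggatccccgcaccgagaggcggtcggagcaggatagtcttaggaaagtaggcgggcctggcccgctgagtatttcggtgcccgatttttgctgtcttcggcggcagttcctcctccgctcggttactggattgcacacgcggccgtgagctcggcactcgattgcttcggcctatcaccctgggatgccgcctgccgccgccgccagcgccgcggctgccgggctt
Rasa1: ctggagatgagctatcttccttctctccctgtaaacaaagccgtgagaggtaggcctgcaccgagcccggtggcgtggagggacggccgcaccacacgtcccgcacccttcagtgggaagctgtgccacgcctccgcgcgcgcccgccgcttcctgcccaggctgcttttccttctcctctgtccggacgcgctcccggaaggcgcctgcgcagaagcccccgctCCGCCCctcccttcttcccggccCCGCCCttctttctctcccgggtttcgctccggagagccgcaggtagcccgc
Rasa2: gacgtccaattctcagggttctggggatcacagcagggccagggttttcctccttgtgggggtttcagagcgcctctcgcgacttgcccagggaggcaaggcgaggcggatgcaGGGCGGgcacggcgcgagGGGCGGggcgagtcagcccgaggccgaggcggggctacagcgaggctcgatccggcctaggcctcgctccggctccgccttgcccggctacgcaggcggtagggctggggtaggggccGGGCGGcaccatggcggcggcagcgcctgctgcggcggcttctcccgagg
Rasgrf1: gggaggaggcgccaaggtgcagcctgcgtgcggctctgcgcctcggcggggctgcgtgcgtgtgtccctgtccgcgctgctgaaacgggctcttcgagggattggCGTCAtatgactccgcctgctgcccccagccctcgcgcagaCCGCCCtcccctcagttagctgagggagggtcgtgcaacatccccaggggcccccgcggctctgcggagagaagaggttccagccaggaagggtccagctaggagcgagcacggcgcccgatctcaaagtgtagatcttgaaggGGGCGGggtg
Rasgrf2: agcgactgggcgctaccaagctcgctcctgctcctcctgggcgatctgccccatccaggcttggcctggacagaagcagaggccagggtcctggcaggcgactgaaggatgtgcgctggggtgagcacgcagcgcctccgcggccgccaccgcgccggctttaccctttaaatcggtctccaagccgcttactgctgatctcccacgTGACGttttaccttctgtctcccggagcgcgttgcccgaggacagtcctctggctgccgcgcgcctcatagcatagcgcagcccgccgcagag

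Rasgrf1 held 1 short CRE and 2 SP1 boxes, Rasa1 held 2 SP1 boxes, Rasa2 held 3 SP1 boxes, and Rasgrf2 held 1 short CRE. In Rasgrf2 the short CRE overlapped an E-box (CACGTG), the only E-box among the 8 promoters. Rasal2 held none of these letters. The short CRE was present in 2 of the 8 members, both exchange factors, and in 20.8% of all 32851 promoters of that length. The SP1 box was present in 6 of the 8 and in 35.7% of all promoters. The full response element TGACGTCA (1.8% of all promoters), the EGR site GCGNGGGCG (5.6%) and the AP-1 site TGANTCA (7.8%) were found in 0 of the 8. These matches describe letters in a window and not sites in use.

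Per kilobase of exon, the exchange factor Rasgrp1, which answers diacylglycerol and calcium, had the highest level of the 9 genes, at 997.1 ± 74.9 (SD, n = 16 libraries). Rasgrf1, a calcium and calmodulin-regulated exchange factor that is imprinted in mice, followed at 496.6 ± 28.2. Both lay clear of every RasGAP. Rasal2 was the highest RasGAP at 178.8 ± 19.6, and Nf1, whose product neurofibromin is lost in neurofibromatosis, stood at 165.8 ± 5.61. These neighbours differed by less than their spread.

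Rasgrf2, the close relative of Rasgrf1, had 134.2 ± 12.7 per kilobase. Rasa3, a RasGAP that also acts on Rap, had 121.5 ± 6.58, and Rasa1 (p120 RasGAP, recruited to tyrosine-phosphorylated receptors) had 116.3 ± 9.23. The step from Rasgrf2 to Rasa3 was about as large as the spread of Rasgrf2, and the step from Rasa3 to Rasa1 was smaller than the spread. Rasal1, a RasGAP that calcium brings to the membrane, had 91.7 ± 20.3 and the widest relative spread of the 9. Rasa2 was lowest at 23.9 ± 1.98. The order was the same in CA1, CA3 and DG. It rests on the summed exon length of all annotated isoforms, which for Rasgrf1 (11063 bases) is well above its longest transcript (4766 bases). With the longest transcript as the length, Rasgrf1 would lie above Rasgrp1, and Rasa1 above Rasa3.

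None of the 9 members was called between subregions, where 0.988% of all genes were called at an adjusted p under 0.05 (limma) between CA1 and CA3, 4.05% between CA1 and DG and 0.00682% between CA3 and DG. No member's libraries separated without overlap either, where 0.832%, 2.47% and 0.641% of all genes did. At an unadjusted p under 0.05, which 10.2%, 19.6% and 6.86% of all genes reached, the count was again 0 of 9 in each. Rasal1 had the largest estimate, 0.23 on the log2 scale for CA1 over CA3 (95% interval -0.04 to 0.49, limma adjusted p = 0.581). That estimate pools training groups that went opposite ways, at -0.20 with trained libraries only (adjusted p = 0.583) and 0.65 with untrained libraries only (adjusted p = 0.375). For Rasgrp1 the interval for CA1 over DG ran from -0.16 to 0.06. For Nf1 it ran from -0.11 to 0.06, but with the GC and length trend removed Nf1 was called lower in CA1 than in DG (-0.20, adjusted p = 0.0159). The widest intervals were those of Rasal1, from -0.50 to 0.06 for CA3 over DG, so a moderate difference in that gene was not detectable with these libraries.

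**Figure D2:**
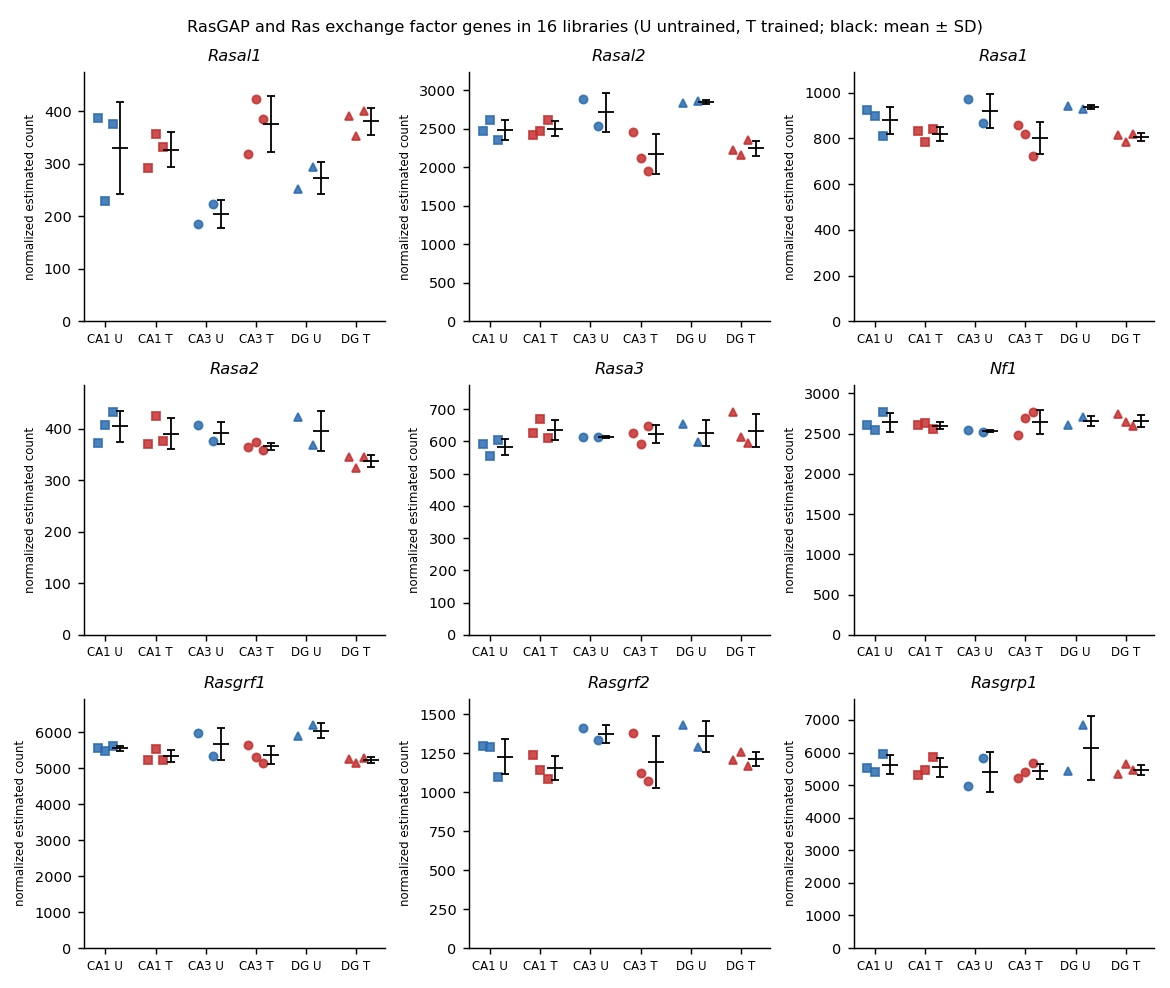
Normalized estimated count (y axis, from 0) of each of the 9 genes in every library, by subregion and training (x axis; U untrained in blue, T trained in red), with the mean and SD of each group in black. Rasal1 was lower in both untrained CA3 libraries (186.0 and 222.7) than in any trained CA3 library, and Rasal2 was higher in both untrained DG libraries (2828.1 and 2864.8) than in any trained DG library.

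Training was then compared within each subregion and over all 16 libraries. In DG, where 3.40% of all genes were called, 3 of the 9 members were: Rasal1 rose, and Rasal2 and Rasgrf1 fell. In CA3, where 0.852% were called, Rasal1 was the 1 member called, and it rose. In CA1, where 5.23% were called, 0 of 9 members were called by limma, also 0 at an unadjusted p under 0.05, which 18.9% of all genes reached. Where 1 of the 2 untrained libraries of CA3 or DG is left out below, the other is assumed to vary like the trained ones. In DG the split by genes at 0 and training cannot be told apart. In bulk tissue, fewer cells of a type and less RNA per cell cannot be told apart, and this holds for each result below.

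Rasal1 (chromosome 5, GRCm38, 120648812 to 120679597, plus strand) carried the largest training difference of the 9 genes. In CA3 its values were 318.4, 423.5 and 384.3 in trained mice and 186.0 and 222.7 in untrained mice. Every trained library lay above every untrained one. The log2 fold change was 0.87 (SE 0.132, limma adjusted p = 0.0192). The trained replicate with few genes at 0, replicate 3, lay above both untrained libraries, which also had few.

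The CA3 rise of Rasal1 stayed at 0.74 or more on the log2 scale without any 1 library. Whether it was called depended on which libraries were kept. Without untrained replicate 1, the library with the unusual Xist value, the log2 fold change of Rasal1 was 0.74 (limma adjusted p = 0.207). It also lost the call without untrained replicate 2 (a larger estimate, adjusted p = 0.059) and without trained replicate 2 (0.78, adjusted p = 0.119). Calls over all genes also fell, from 118 to 7, without trained replicate 2. They numbered 680 and 129 without trained replicates 1 and 3, where Rasal1 stayed called. By RT-qPCR in other mice, the paper also reports higher Rasal1 in CA3 after training. The longest Rasal1 transcript had a GC content of 60.7%, the highest of the 9 genes (39.8% to 52.7% in the others). Once the dependence on GC content and length had been removed within every library, the CA3 change was 0.70 (adjusted p = 0.0817).

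In DG, Rasal1 had values of 389.8, 351.7 and 400.4 in trained mice against 251.5 and 293.5 in untrained mice. Again the groups did not overlap. On the log2 scale the change was 0.48 (SE 0.110, limma adjusted p = 0.0258). It kept its sign without any 1 library (0.37 to 0.59) but was called only when untrained replicate 3 was the one left out. With the spread of all 16 libraries in one fit, the adjusted p was 0.163.

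In CA1, Rasal1 did not separate the groups, with values of 290.8, 356.2 and 332.0 in trained mice and 386.4, 229.3 and 375.3 in untrained mice. Untrained replicate 2 was far below the other untrained libraries. The log2 fold change was 0.02 (95% interval -0.47 to 0.50), an interval that includes the 0.48 estimated in DG. It was -0.23 without untrained replicate 2 (adjusted p = 0.34) and between -0.05 and 0.15 without any other 1 library. The difference between the effects in CA1 and CA3 was -0.85 (SE 0.250, limma adjusted p = 0.427). Without the mouse labelled untrained replicate 2 it was -1.22 (adjusted p = 0.00888), and the difference between CA1 and DG was -0.71 (adjusted p = 0.0424). That mouse gave the low CA1 value, and without it the untrained CA3 group is replicate 1 alone, the library with the unusual Xist value, whose spread is taken from the other groups.

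Rasal2 (chromosome 1, 157135182 to 157412595, minus strand), a RasGAP with a pleckstrin homology domain, moved the other way. In DG its values were 2220.6, 2160.8 and 2351.1 in trained mice and 2828.1 and 2864.8 in untrained mice. The gap between the groups was wider than the range within either. The log2 fold change was -0.34 (SE 0.063, limma adjusted p = 0.0101), and it stayed between -0.38 and -0.32 with each library left out. The call was lost without trained replicate 1 (adjusted p = 0.0575) and without trained replicate 2 (adjusted p = 0.0798).

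In CA3, Rasal2 had values of 2457.5, 2114.7 and 1948.3 in trained mice and 2889.1 and 2533.8 in untrained mice. The trained values all lay lower, with a narrow gap. The log2 fold change of -0.32 (SE 0.104) had a limma adjusted p of 0.176. It was called with a block for replicate number (-0.25, adjusted p = 0.00596), with the spread of all 16 libraries in one fit (adjusted p = 0.0279) and without trained replicate 1 (-0.41, adjusted p = 0.0228). With 1 library left out the change ran from -0.42 to -0.23.

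Trained and untrained CA1 libraries overlapped for Rasal2. The values were 2421.1, 2475.1 and 2607.8 in trained mice and 2467.3, 2613.0 and 2357.9 in untrained mice. The change was 0.01 on the log2 scale (95% interval -0.10 to 0.13). The effect in CA1 differed from that in DG by 0.36 (SE 0.107, limma adjusted p = 0.0692), which passed the threshold with no filter on low values (adjusted p = 0.0394) and with the GC and length trend removed (0.46, adjusted p = 0.0144). Some reads at this locus may belong to 2810025M15Rik, a pseudogene on the opposite strand.

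Rasgrf1 (chromosome 9, 89909908 to 90026977, plus strand) was the only exchange factor called within a subregion. In DG its values were 5270.1, 5148.0 and 5287.5 in trained mice and 5893.2 and 6196.2 in untrained mice. With no overlap between groups, the log2 fold change was -0.21 (SE 0.054, limma adjusted p = 0.0476). The call was lost with untrained replicate 3 or any 1 trained library left out, without robust estimation (adjusted p = 0.0732) and with a block for replicate number (adjusted p = 0.112).

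In CA3, Rasgrf1 overlapped between trained (5635.2, 5307.8 and 5146.4) and untrained mice (5988.7 and 5352.5). In CA1 the values were 5237.5, 5538.3 and 5235.7 in trained mice and 5555.3, 5479.4 and 5632.2 in untrained mice. Trained replicate 2 reached into the untrained range there. The log2 fold changes were -0.08 in CA3 (limma adjusted p = 0.659) and -0.06 in CA1 (adjusted p = 0.506).

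**Figure D3:**
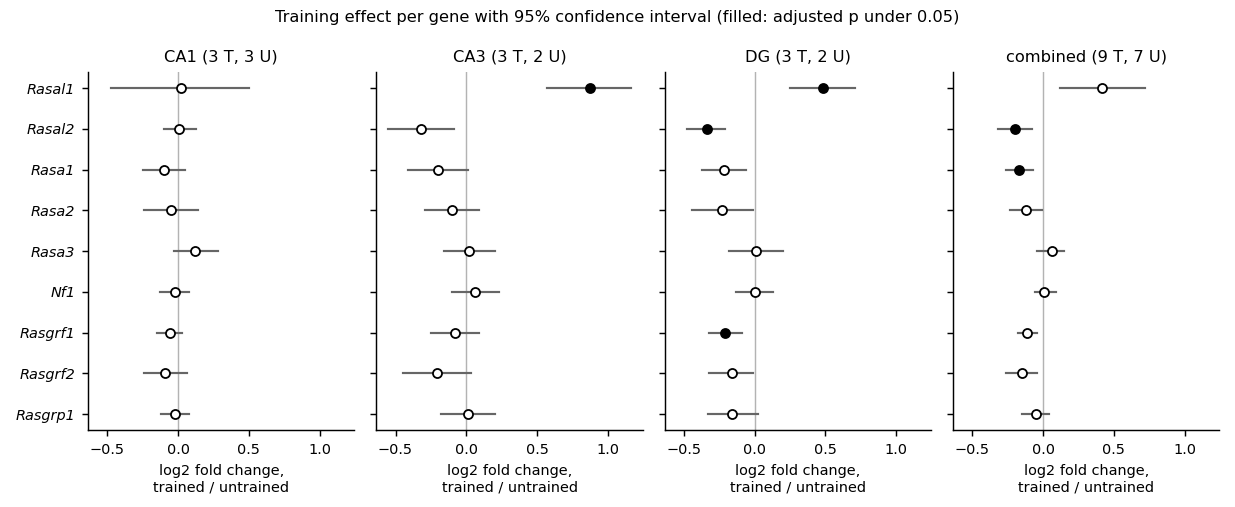
Log2 fold change of trained over untrained (x axis) with its 95% confidence interval for each of the 9 genes (y axis) in CA1, CA3, DG and all subregions combined. Filled points have an adjusted p under 0.05: Rasal1 in CA3 (0.87) and DG (0.48), Rasal2 (-0.34) and Rasgrf1 (-0.21) in DG, and Rasal2 (-0.20) and Rasa1 (-0.17) in the combined comparison.

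**Figure D4:**
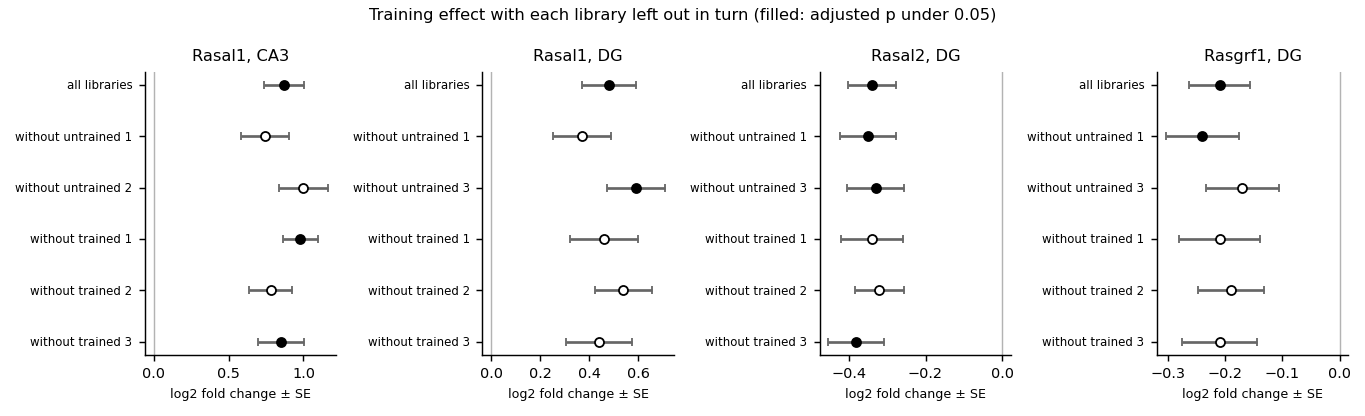
Log2 fold change with its SE (x axis) of the 4 calls made within a subregion, with all libraries and with each library left out in turn (y axis; filled where the adjusted p was under 0.05). All estimates kept their sign, and open points show where a call was lost, as for Rasal1 in CA3 without untrained replicate 1 (0.74).

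Groups that did not overlap were more common than calls. In DG, 6 of the 9 members had trained values all on one side of the untrained ones, against 35.6% of all genes. These were Rasal1, with higher values, and Rasal2, Rasa1, Rasa2, Rasgrf1 and Rasgrf2, with lower values. In CA3 it was 4 of 9 against 33.9% (Rasal1 above, Rasal2, Rasa1 and Rasa2 below). In CA1 it was 1 of 9 against 24.0%, namely Rasa3, with 626.6, 668.5 and 610.9 in trained mice and 591.1, 555.7 and 603.5 in untrained mice. The change was 0.12 on the log2 scale (limma adjusted p = 0.397).

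Rasa1 (chromosome 13, 85214780 to 85289130, minus strand) had DG values of 815.3, 783.8 and 816.8 in trained mice and 942.9 and 928.9 in untrained mice. The untrained pair was clearly higher, and the log2 fold change was -0.22 (SE 0.075, limma adjusted p = 0.119). In CA3 the values were 859.4, 820.8 and 721.8 in trained mice and 973.1 and 865.4 in untrained mice, for a change of -0.20 on the log2 scale (adjusted p = 0.336). In CA1 the groups overlapped, and the log2 fold change was -0.10 (adjusted p = 0.47). Rasa1 overlaps Ccnh on the opposite strand, and whether the counting used strand is not given in the sources used here.

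Rasgrf2 had DG values of 1205.8, 1259.3 and 1169.3 in trained mice and 1429.8 and 1287.3 in untrained mice. On the log2 scale it changed by -0.16 (limma adjusted p = 0.231), by -0.09 without untrained replicate 1 and by -0.24 without untrained replicate 3. In CA3 it was -0.21 (adjusted p = 0.364), where trained replicate 1 (1381.5) lay inside the untrained range of 1332.1 to 1413.8. Without that library the CA3 change was -0.32 (adjusted p = 0.0415). In CA1 it was -0.09 (adjusted p = 0.554).

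Rasa2, the lowest of the 9, had DG values of 344.7, 323.6 and 344.4 in trained mice and 423.2 and 368.4 in untrained mice, for a change of -0.23 on the log2 scale (limma adjusted p = 0.239). The change was -0.13 without untrained replicate 1 and -0.33 without untrained replicate 3. Its log2 fold changes were -0.10 in CA3 and -0.05 in CA1, neither called. Rasa3 outside CA1 had log2 fold changes of 0.02 in CA3 and 0.01 in DG.

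Nf1 and Rasgrp1 were called in no subregion. Nf1 (chromosome 11, 79339693 to 79581612) ranged from 2483.7 to 2769.6 over its CA3 libraries, from 2541.4 to 2768.0 in CA1 and from 2596.9 to 2745.6 in DG. Its log2 fold change was 0.00 in DG (95% interval -0.13 to 0.13), -0.02 in CA1 (-0.13 to 0.08) and 0.06 in CA3 (-0.10 to 0.23). Omg and the Evi2 genes lie within Nf1 on the opposite strand.

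Rasgrp1 (chromosome 2, 117279993 to 117343001) changed by -0.02 on the log2 scale in CA1, by 0.01 in CA3 and by -0.16 in DG, none of them called. In DG its values were 5332.6, 5639.7 and 5458.6 in trained mice and 5445.5 and 6836.8 in untrained mice. Untrained replicate 3 alone lay above the trained range. The DG change was 0.01 without that library. Without untrained replicate 1 it was -0.32 (limma adjusted p = 0.00789), a fit in which the untrained group is that high library alone and its spread is taken from the trained libraries.

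Across all 16 libraries, with the subregion as a term, Rasal2 and Rasa1 fell, 2 of 9 members where 10.3% of all genes were called. Rasal2 ran from 1948.3 to 2607.8 in the 9 trained libraries (median 2351.1) and from 2357.9 to 2889.1 in the 7 untrained libraries (median 2613.0). The groups overlapped in range, and the log2 fold change was -0.20 (SE 0.057, limma adjusted p = 0.0285). Rasa1 ran from 721.8 to 859.4 (median 816.8) in trained and from 812.0 to 973.1 (median 925.3) in untrained libraries. Its log2 fold change was -0.17 (SE 0.046, adjusted p = 0.022).

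Of the rest, Rasgrf1 (-0.11, limma adjusted p = 0.0506), Rasal1 (0.42, adjusted p = 0.0713) and Rasgrf2 (-0.15, adjusted p = 0.0726) lay just outside the threshold in the combined comparison. Each was called under some settings. Over the alternatives the estimates ran from -0.20 to -0.05 for Rasgrf1, from 0.33 to 0.80 for Rasal1 and from -0.30 to -0.07 for Rasgrf2. Rasal1 was called without untrained replicate 3 (0.52, adjusted p = 0.0329) and without robust estimation (0.0322). Rasgrf2 was called without untrained replicate 3 (-0.20, adjusted p = 0.0141), without trained replicate 1 (-0.20, 0.0257) and with the split by genes at 0 as a term (-0.17, 0.0427). For Rasgrf1 it was without untrained replicate 2 (-0.14, adjusted p = 0.0326), with the same term (-0.13, 0.00933), with the mouse as a random block (0.039) and with a minimum of 10 in every library (0.0474). Rasa2 had -0.12 (adjusted p = 0.162), Rasa3 0.06, Nf1 0.01 and Rasgrp1 -0.05. The 16 libraries come from 6 mice, and with 1 value per mouse 1 member stayed called, Rasal2, while Rasa1 had -0.16 (adjusted p = 0.0933). Both calls were lost without the mouse labelled untrained replicate 1 (adjusted p = 0.2 for Rasal2 and 0.262 for Rasa1), without its CA3 library alone (0.0876 and 0.0715) and without trained replicate 2 (0.112 for both). Rasal2 also lost the call without untrained replicate 2 (0.0699), and Rasa1 without trained replicate 3 (0.0504). They were also lost with the GC and length trend removed, where Rasal2 had -0.16 (adjusted p = 0.144) and Rasa1 -0.08 (adjusted p = 0.43). With a sex-linked score as a covariate, which nearly coincides with training, limma called 0 of 14670 genes (1702 at an unadjusted p under 0.05), and Rasal2 had -0.33 and Rasa1 -0.28. Training and sex-linked expression therefore cannot be told apart for these members.

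No member's training effect was called as different between subregions, where 0.0273% of all genes were called between CA1 and CA3, 2.75% between CA1 and DG and 0.130% between CA3 and DG (limma). At an unadjusted p under 0.05, Rasal1 and Rasal2 differed between CA1 and CA3, and Rasal2 differed between CA1 and DG. This threshold was reached by 6.71% and 17.9% of all genes, and by 11.7% for CA3 against DG, where it was reached by 0 of 9 members. For CA3 against DG the estimates were 0.39 for Rasal1 (95% interval -0.17 to 0.95) and 0.02 for Rasal2 (-0.21 to 0.25). With the GC and length trend removed, the effect on Rasgrf1 differed between CA1 and DG (0.32, adjusted p = 0.0318, against 0.15 and 0.331 without that step), as did that on Rasal2. The calls in DG and CA3 are not shown to be particular to those subregions.

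The median log2 fold change of the 6 RasGAPs was -0.00 in CA1, -0.04 in CA3, -0.11 in DG and -0.05 in the combined comparison. That of the 3 exchange factors was -0.06, -0.08, -0.16 and -0.11. The median over all genes tested lay between -0.01 and 0.00 in each.

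Summed markers of several cell types moved with training beside the members. Those of granule cells were, in DG, 8571, 8416 and 7974 in trained mice and 9876 and 10196 in untrained mice, with all trained values lower. In CA3 they were 9949, 7256 and 6691 in trained mice and 11492 and 9449 in untrained mice. In CA1 they were 8856, 8961 and 8791 in trained mice and 8734, 9193 and 7620 in untrained mice. Some other sums there did not overlap between groups. CA1 markers summed to 1624 to 2011 in trained and 3281 to 5300 in untrained mice, with 3 of 6 called lower. CA3 markers summed to 1948 to 2043 against 1506 to 1650, with 2 of 6 called higher and 1 lower. Astrocyte sums were lower (9548 to 9908 against 10282 to 10705) and endothelial sums higher (611 to 646 against 538 to 547).

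Over the 16 libraries, which share 6 mice, Pearson's r of the log2 level with the log2 granule cell sum was 0.88 for Rasal2, 0.82 for Rasgrf2, 0.81 for Rasa1 and 0.70 for Rasgrf1. It was -0.78 for Rasal1 and -0.64 for Nf1. For Rasa3 it was -0.01. None of the 6 granule markers was at 0 in any library, and 1 of 6 was called lower in trained DG, 0 of 6 in CA3. In trained CA1, 1 of 6 was called higher and 1 lower. Endothelial markers also moved with training in DG, with sums of 309, 325 and 292 in trained mice and 600 and 454 in untrained mice, and 1 of 4 was called lower. In DG, interneuron sums were higher, with 3748, 3581 and 3662 in trained mice and 3210 and 3493 in untrained mice and 0 of 6 markers called, and oligodendrocyte sums were lower, with 12989, 11951 and 13107 against 13776 and 17254 and 0 of 5 called. In CA3 the widest gap was that of choroid plexus markers, with sums of 236, 260 and 317 in trained mice and 809 and 1120 in untrained mice, and 2 of 5 were called lower. Astrocyte sums in CA3 were 9640, 8688 and 8830 in trained mice and 10891 and 9862 in untrained mice, with 0 of 5 markers called. The r was 0.68 for Rasal2 with astrocyte markers, 0.65 for Rasa2 with endothelial markers, 0.60 for Rasal1 with interneuron markers and -0.41 for Rasal1 with choroid plexus markers. The part of these cell types in the results for the 9 genes was not tested.

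**Figure D5:**
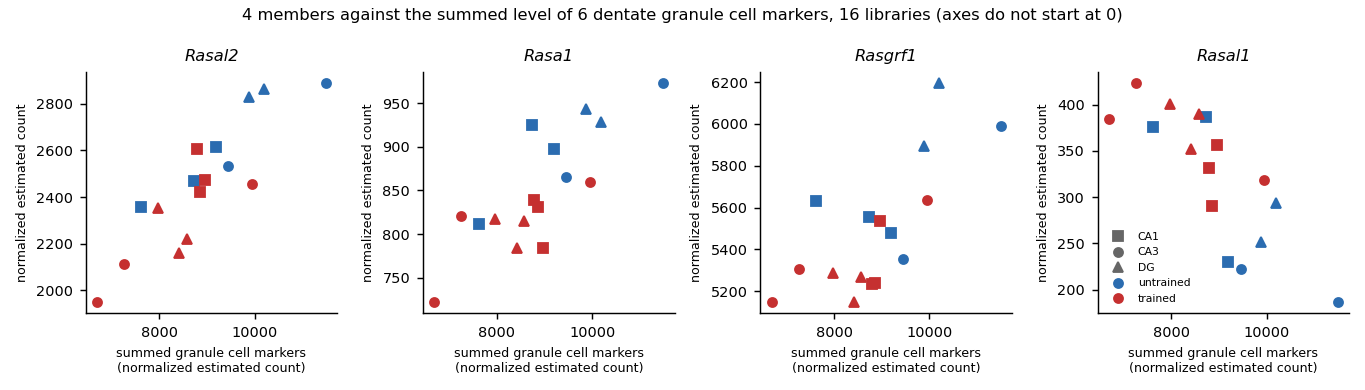
Normalized estimated count of Rasal2, Rasa1, Rasgrf1 and Rasal1 (y axes) against the summed normalized estimated count of 6 granule cell markers (x axis) in 16 libraries, with the shape giving the subregion and the colour the training group. Rasal2 was higher where the marker sum was higher (r = 0.88) and Rasal1 lower (r = -0.78), and the axes do not start at 0.

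Some of the members varied together and others did not. Rasa3 had r from -0.33 to 0.30 with the other members over the 16 libraries, and Rasgrp1 from -0.26 to 0.37. The pairs given next are among the strongest. Rasal2 and Rasa1 had r = 0.87 over the 16 libraries and 0.82 after the group means were removed. Rasal2 and Rasgrf1 had r = 0.79, or 0.66 within groups. Rasal1 ran against Rasal2 (r = -0.73, or -0.48 within groups) and against Rasgrf2 (-0.71, or -0.61). These are descriptions over libraries that share mice.

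Among 10755 genes with a mean value of at least 50, those whose log2 levels were most like a member's over the 16 libraries were listed for each. For Rasal2 they were Lmo7 (r = 0.96), Stxbp6 (0.94) and Fam163b (0.94). For Rasal1 they were Golga7b (0.89), Plxna1 (0.88) and Tenm2 (0.87). For Rasa1 they were Mef2c (0.93), Scn3a (0.92) and Shprh (0.91).

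For Rasgrf1 the nearest genes were U2surp (0.90), Tut4 (0.90) and Qrich1 (0.88), and for Rasgrf2 Ermp1 (0.88), Tiam1 (0.87) and Il1r1 (0.87). For Nf1 they were Kcnh2 (0.84), Ap2b1 (0.84) and Slc6a9 (0.83), and for Rasa2 0610030E20Rik (0.87), Ints6l (0.86) and Arhgef2 (0.86). Rasgrp1 had Mef2a (0.79), Slmap (0.78) and Gm10052 (0.77), and with 1 mouse left out these fell as low as 0.46, 0.45 and 0.56. Rasa3 had the weakest likeness, with Rer1 (0.71), Bin3 (0.69) and Myrip (0.69).

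Other genes of the pathway, 61 in all, were followed as one list of Ras GTPases, other RasGAPs, other exchange factors, upstream adaptors and phosphatases, and effectors. In CA1, 1 of the 60 tested was called (1.67% against 5.23% of all genes). This was Ksr1, a scaffold of the ERK cascade, with 1179.9 ± 106.4 (SD, n = 3) in trained and 1397 ± 60.6 (n = 3) in untrained mice. It changed by -0.25 on the log2 scale (limma adjusted p = 0.0395), and the call was lost without untrained replicate 1 or 3 or trained replicate 1 or 3 (adjusted p from 0.0578 to 0.194).

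In CA3, 1 of 60 was called (1.67% against 0.852% of all genes), the RasGAP Dab2ip, which rose from 556.3 ± 6.25 (SD, n = 2) to 754.4 ± 12.2 (n = 3). Its log2 fold change was 0.44 (limma adjusted p = 0.0305), and the call was lost with the GC and length trend removed (0.32, adjusted p = 0.132) and without any 1 library other than trained replicate 1 (adjusted p from 0.0521 to 0.248). In DG, 2 of 59 were called, a share of 3.39% beside 3.40% of all genes. Map2k1, the ERK kinase MEK1, rose by 0.33 on the log2 scale (adjusted p = 0.0113), and Iqgap2, a scaffold with a GAP-related domain, fell by 0.51 (adjusted p = 0.0109). Both calls were lost without trained replicate 2 (adjusted p = 0.0847 and 0.0946), and that of Map2k1 also without trained replicate 1 (adjusted p = 0.0636).

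In the combined comparison 10 of 61 were called (16.4% against 10.3% of all genes), 4 higher and 6 lower. Among effectors, Map2k1 rose by 0.22 and Map2k2 (MEK2) by 0.31 on the log2 scale (limma adjusted p = 0.00304 and 0.00692). Among Ras GTPases, Nras fell by 0.21 and Mras by 0.17 (adjusted p = 0.0211 and 0.00989). The adaptor Shc2 rose by 0.22 (adjusted p = 0.0112). The calls of Map2k2, Shc2 and Nras were lost with 1 value per mouse (adjusted p = 0.091, 0.0545 and 0.0998), and those of Nras and Mras with the GC and length trend removed (adjusted p = 0.265 and 0.077). All 4 of Map2k2, Shc2, Nras and Mras lost the call without the mouse labelled untrained replicate 1 (adjusted p from 0.0626 to 0.279) and without that labelled trained replicate 2 (0.0698 to 0.097). Shc2 also lost it without untrained replicate 2 (0.0575), and Nras without trained replicate 1 (0.0719) or trained replicate 3 (0.0667). Map2k1 stayed called in each of these fits. With the sex-linked covariate, under which no gene was called, the estimates were 0.11 for Map2k1, 0.14 for Map2k2, 0.15 for Shc2, -0.26 for Nras and -0.20 for Mras.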

How the data were processed

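Bulk RNA-seq values of 16 libraries were used as deposited. The authors used STAR for alignment and Salmon for quantification and then normalized, so the deposited signal is a normalized estimated count. The build is GRCm38 in the submitters' processing notes. Whole reads could not be recovered, so depth is unknown and the count test of the study's methods was not used.

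limma 3.58.1 in R 4.3.3 was run on log2(value + 2), with robust estimation around a mean-variance trend and p-values (two-sided) adjusted by Benjamini-Hochberg over all genes. Fold changes are on that scale. Genes had a value of at least 10 in at least 3 libraries (CA1) or 2 (other comparisons). A gene was called at an adjusted p under 0.05. Differences between subregions and between training effects came from one fit of 6 groups. In all, 4 rows with repeated symbols were left out. Scripts were tested on simulated data.

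Libraries of one mouse did not deviate together (r from -0.108 to 0.092 over 14 pairs), nor did trained and untrained libraries of one number (-0.180 to 0.119 over 7 pairs), so no block was used. Members, marker and pathway lists were chosen with earlier results of these data known. All 9 members are named, with the 3 most similar genes each, and up to 3 called pathway genes per direction, of which some are not reported here. Positions and lengths are from GENCODE M21. Alternatives were another pseudocount, filter, scaling, fit, block, covariates and left-out libraries. A difference smaller than its SE was taken to have no direction.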

Additional observations from a re-analysis of the deposited data

How the results depend on the processing

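The limits include the number of mice, 3 per group and 2 untrained libraries in CA3 and DG. A sex-linked score nearly coincides with training, and the depth is unknown. Counts of members called, of 9, ranged with 1 library or mouse left out from 0 to 3 in CA3 (1 with all), 0 to 3 in DG (3), 0 to 4 in the combined comparison (2), and 0 to 1 for CA1 against CA3 and CA1 against DG as differences of the effect (0 in both). CA1 stayed at 0.

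With the GC and length trend removed the count was 0 in CA3, 0 in the combined comparison, 2 for the CA1 against DG difference of the effect (Rasal2 and Rasgrf1) and 1 between CA1 and DG libraries (Nf1, -0.20). In CA3 it was 2 in the fit that took all libraries and 2 with a block for replicate number, where Rasal2 was called (-0.25). In the combined comparison it was 1 with 1 value per mouse, 0 with the sex-linked covariate, under which no gene was called, 4 with the split by genes at 0 as a term, and 0 without untrained CA3 replicate 1, an alternative chosen after seeing the data. For the CA1 against DG difference it was 1 with no filter. The causes were not tested.

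The block took away the DG call of Rasgrf1 (-0.19, limma adjusted p = 0.112), and the mouse as a random block made Rasgrf1 called in the combined comparison (-0.11, adjusted p = 0.039). The block for replicate number also took away the CA1 call of Ksr1 (-0.25, adjusted p = 0.085) and changed no other call of a member or named pathway gene than these and that of Rasal2 in CA3.

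Small changes turned sign without being called. With GC removed these were Rasgrf1 in CA1 (0.01), Rasa2 in CA3 (0.00) and Rasgrp1 combined (0.03). With the sex-linked covariate they were Rasgrp1 (0.12) and Rasa3 (-0.01). With a library or mouse left out they were Rasgrf1 in CA3 (0.00 without untrained replicate 1, range -0.16 to 0.00), Rasgrp1 in DG (0.01 without untrained replicate 3, range -0.32 to 0.01) and Rasgrp1 combined (range -0.13 to 0.01). With trained libraries only, Rasal1 for CA1 over CA3 (-0.20) and Rasgrf1 for CA1 over DG (0.03) did so.

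Over the alternatives, the number of all genes called ran from 329 to 1879 in CA1 (main 710), 7 to 1170 in CA3 (118), 28 to 1585 in DG (473) and 0 to 1872 combined (1516). For the differences of the effect it ran from 0 to 69 (CA1 against CA3, 4), 24 to 2039 (CA1 against DG, 404) and 0 to 72 (CA3 against DG, 19). Between subregions it ran from 20 to 219 (145), 113 to 759 (594) and 0 to 23 (1) in the same order.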

Other observations

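Of the 61 other pathway genes, 2 were called between CA1 and CA3 (3.28% against 0.988% of all genes) and 3 between CA1 and DG (4.92% against 4.05%). The 4 described here were chosen after their values were seen. CA1 libraries had more Dab2ip than CA3 libraries (829.1 ± 76.6, SD, n = 6, against 675.1 ± 108.9, n = 5, log2 fold change 0.35, limma adjusted p = 0.00251). The means were 825.3 and 556.3 in untrained mice and 832.9 and 754.4 in trained mice, in that order. Dusp6, a phosphatase of ERK, was also higher in CA1 than in CA3 (436.9 ± 94.2 against 320.1 ± 27.2, log2 fold change 0.43, adjusted p = 0.01). Its means were 496.4 in CA1 and 310.9 in CA3 of untrained mice, and 377.4 and 326.1 in trained mice. Spred1, a RasGAP partner that recruits neurofibromin, was higher in CA1 than in DG (1727 ± 91.3 against 1503 ± 99.3, log2 fold change 0.21, adjusted p = 0.0239). The means were 1804 in CA1 and 1477 in DG of untrained mice, and 1649 and 1521 in trained mice. Mapk3 (ERK1) was lower in CA1 than in DG, with 981.7 ± 38.8 against 1120.1 ± 141.1 (log2 fold change -0.21, adjusted p = 0.0392). Its means were 982.5 in CA1 and 1254 in DG of untrained mice, and 981.0 and 1031 in trained mice. None of the 61 was called between CA3 and DG, where limma called 1 gene of all those tested.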
